A study of Mus musculus with 9 samples.

Results

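The genes described are the nuclear-encoded subunits of the oxidative phosphorylation complexes in mouse kidney. They were taken by symbol: Nduf genes of the a, b, c, s and v series, Sdha to Sdhd, Uqcr genes, Cox4 to Cox8 genes and Atp5 genes, without names that hold -ps. Of 52160 symbols shared by the count tables, 102 matched, 13 of them held -ps, and 89 remained. Complex I had 40 members, complex II 4, complex III 8, complex IV 21 and complex V 16, with Ndufa4 and Ndufa4l2 placed in complex IV. The gene annotation called 83 members protein-coding and 4 processed pseudogenes (Ndufa11b, Ndufb4c, Ndufs6b and Cox6c2), and 2 members, Ndufb1 and Ndufb11b, had no match in it. The 4 pseudogenes are near-identical copies of expressed subunits, so reads may be split between copy and parent and their counts are uncertain. After the filter on low counts 86 members were tested, and Ndufb11b, Cox8c and Cox7b2 were left with at most 3 counts in any library.

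Polyadenylated RNA had been sequenced from whole kidney of mice at 16 weeks of age, all on the C57Bl/6N background. WT libraries came from wild-type mice. ΔPod libraries came from mice in which Ybx1 had been deleted from podocytes, the cells that wrap the glomerular capillaries. K2A libraries came from mice whose podocytes carried a secretion-deficient Ybx1 with the substitutions K299A and K302A in exon 7, which remove the lysines whose acetylation secretion requires. Ybx1 encodes a cold shock protein that binds RNA and DNA. Each group had 3 libraries. The labels give no Cre driver, sex or batch, and whether the libraries are from different animals is not stated either, so p-values measure the spread between these samples, which may be technical.

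Oxidative phosphorylation passes electrons from NADH through complex I, and from succinate through complex II, to ubiquinone, complex III, cytochrome c and complex IV, where oxygen is reduced. Complexes I, III and IV pump protons across the inner mitochondrial membrane, and complex V, the ATP synthase, uses the gradient to make ATP. Complex II is encoded wholly in the nucleus, while the other complexes combine nuclear subunits with a few encoded by mitochondrial DNA. In the kidney, the proximal tubule and the thick ascending limb are rich in mitochondria because sodium transport there consumes much ATP.

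The libraries held 30776806 to 46852490 counts, and 18067 genes were tested. No marker of the proximal tubule or of podocytes was at 0 in any library. Levels are given in CPM, the read count corrected for the TMM-adjusted library size. Ybx1 had 1189.7, 1585 and 1185 CPM in WT, 1167, 881 and 605 CPM in ΔPod and 1078, 1152 and 554 CPM in K2A, in RNA of the whole kidney. Its log2 fold change against WT was -0.58 in ΔPod (edgeR adjusted p = 0.465) and -0.51 in K2A (edgeR adjusted p = 0.725). The summed counts of 4 Y-linked genes were 3404 to 4148 in WT, 0 in ΔPod and 0 to 22 in K2A, and Xist had 0 counts in WT and 17.0 to 331 CPM in the other libraries. This split coincides with that between WT and the other groups, so effects of genotype and of this difference cannot be told apart. Libraries also differed in how their counts depended on transcript length. The slope of a library's log2 CPM, each gene centred on its mean over 9 libraries, on log2 transcript length, with the members left out, was 0.269, -0.0789 and 0.309 in WT 1, 2 and 3, -0.502, -0.186 and 0.350 in ΔPod 1, 2 and 3, and -0.265, -0.280 and 0.383 in K2A 1, 2 and 3. Longer transcripts thus had relatively more counts in WT 1, WT 3, ΔPod 3 and K2A 3, and shorter transcripts in WT 2, ΔPod 1, ΔPod 2, K2A 1 and K2A 2.

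The promoters of 4 members are shown because these genes carry the results that follow: Sdha and Sdhb, partners in complex II whose counts moved in opposite directions between libraries, Atp5e, the smallest subunit of ATP synthase, and Cox8b, the member with the largest fold change against WT. Each run holds the 250 bases before the RefSeq transcription start on build GRCm38.p6, 5′ to 3′ on the gene's strand. The Sdha window is chr13:74350241-74350490 on the minus strand, that of Sdhb is chr4:140961021-140961270 on the plus strand, that of Atp5e is chr2:174464102-174464351 on the minus strand, and that of Cox8b is chr7:140900447-140900696 on the minus strand. Capitals mark matches on either strand to the motifs of NRF1, ETS factors, estrogen-related receptors, YY1, NF-Y and the TATA box, spelled out after the runs. Matches to Sp1 were counted but not capitalised, and none of the motifs contains another.
Sdha: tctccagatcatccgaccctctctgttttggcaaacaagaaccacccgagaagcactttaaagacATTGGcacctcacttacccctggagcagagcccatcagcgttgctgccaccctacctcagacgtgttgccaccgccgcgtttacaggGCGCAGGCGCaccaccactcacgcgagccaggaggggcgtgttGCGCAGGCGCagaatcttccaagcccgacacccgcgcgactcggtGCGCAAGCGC
Sdhb: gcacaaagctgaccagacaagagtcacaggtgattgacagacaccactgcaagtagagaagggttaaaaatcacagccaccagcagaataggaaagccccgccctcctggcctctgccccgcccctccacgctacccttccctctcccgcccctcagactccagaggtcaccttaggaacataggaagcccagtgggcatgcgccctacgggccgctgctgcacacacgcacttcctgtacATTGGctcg
Atp5e: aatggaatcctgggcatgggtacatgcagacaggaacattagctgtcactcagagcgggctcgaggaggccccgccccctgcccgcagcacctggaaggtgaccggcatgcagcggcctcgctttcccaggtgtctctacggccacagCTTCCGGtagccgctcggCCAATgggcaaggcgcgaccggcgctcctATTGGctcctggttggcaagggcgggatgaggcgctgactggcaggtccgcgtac
Cox8b: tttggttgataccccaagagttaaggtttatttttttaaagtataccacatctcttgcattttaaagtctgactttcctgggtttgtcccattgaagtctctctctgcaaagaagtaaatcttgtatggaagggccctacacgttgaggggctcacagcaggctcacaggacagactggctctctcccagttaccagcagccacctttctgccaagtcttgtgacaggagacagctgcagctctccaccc
The Sdha window held 3 NRF1 matches and 1 NF-Y match, the Sdhb window 1 NF-Y match, the Atp5e window 1 ETS match and 2 NF-Y matches, and the Cox8b window no capitalised match. RefSeq promoters were matched for 67 of the 86 tested members, giving 72 windows, beside 15679 windows of all tested genes. The NRF1 motif, the letters GCGCA and GCGC with any 1 base between them, occurred in 14 member windows (19.4%) and in 6.85% of all windows. The letters CCGGAAG of ETS factors, the family of GABP, occurred in 12 member windows (16.7%) and 11.7% of all. The letters AAGGTCA of estrogen-related receptors occurred in 5 member windows (6.94%) and 3.12% of all. The letters AAGATGGCG of YY1 occurred in 1 member window (1.39%) and 1% of all. The letters CCAAT of NF-Y occurred in 30 member windows (41.7%) and 34.7% of all, and TATAAA in 7 (9.72%) and 7.05% of all. The Sp1 letters GGGCGG occurred in 24 member windows (33.3%) and 53.4% of all. Mean GC content was 56.5% in member windows and 58.9% in all windows. These are matches of letters and no test was made on them.

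Per length, the ATP synthase beta subunit Atp5b, which carries the catalytic sites, had the highest level in WT, at 2166 ± 79.5 CPM per kb of transcript (SD, n = 3). It was followed by Cox4i1, a regulatory subunit of cytochrome c oxidase, at 2105 ± 995 CPM per kb, and Ndufa4, a subunit of the same complex, at 1480.2 ± 813 CPM per kb. Cox6a1 had 1367 ± 414 CPM per kb, and Atp5g3, which encodes the c subunit of the proton-conducting ring, had 1353 ± 322 CPM per kb. None of these 5 differed from its neighbour in the order beyond the spread of the WT libraries, which was wide for all but Atp5b. In complex III the small subunits Uqcr10, Uqcrq and Uqcrh led with 1039 ± 600.2, 965 ± 534 and 933 ± 518 CPM per kb, and were within their spread of each other. Complex I lay lower, with Ndufa6 at 573 ± 188 and Ndufb9 at 566 ± 295 CPM per kb as its highest. The length used is the median over a gene's annotated transcripts. For Ndufa6 it was 382 bases, shorter than the longest coding length of 393. Its level per kb may therefore be too high, and its order against Ndufb9 is not settled. In complex II, Sdhb, the iron-sulfur subunit, had 482 ± 134 CPM per kb, Sdhd, a membrane anchor, 368 ± 124, Sdha, the flavoprotein that oxidises succinate, 292 ± 102, and Sdhc, the other anchor, 278 ± 40.6. At the low end of the tested members were Cox8b, Cox4i2 and Ndufa11b at 0.101, 1.15 and 2.12 CPM per kb. How the authors' counting treated reads that match several places is not given in the sources used here, and its part in these levels was not tested.

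The members together took 2.83%, 4.25% and 2.72% of all counts in WT 1, 2 and 3. In ΔPod 1, 2 and 3 they took 8.43%, 5.62% and 2.48%, and in K2A 1, 2 and 3 they took 5.17%, 5.40% and 2.23%. ΔPod 1 was the highest library and K2A 3 the lowest, and WT lay within the range of both other groups. Markers of several kidney cell types, though not of all, moved the other way. The 9 proximal tubule markers summed to 22094, 13926 and 21622 CPM in WT, 8549, 10502 and 17495 CPM in ΔPod, and 9997, 11532 and 21361 CPM in K2A. The 6 podocyte markers summed to 456, 211 and 465 CPM in WT, 103, 196 and 760.3 CPM in ΔPod, and 193, 178 and 573 CPM in K2A. The proximal tubule and podocyte sums were low in the libraries in which the members were high. The 6 pericyte and smooth muscle markers did not move this way. They summed to 185, 194 and 209 CPM in WT, 467, 281 and 258 CPM in ΔPod, and 311, 316 and 197 CPM in K2A. The part of these cell types in the members' pattern was not tested. Complex IV spread most, from 0.394% in K2A 3 to 2.59% in ΔPod 1, and complex II least, from 0.202% to 0.295%, both ends of it in K2A. Of the 86 tested members, 70 had their highest CPM in ΔPod 1 and 69 their lowest in K2A 3. The ratio of the highest to the lowest library of a group had a median of 1.87 over the members in WT, 5.40 in ΔPod and 3.28 in K2A, beside 1.64, 2.94 and 2.21 over all tested genes. The most even members were Ndufa10 in WT (1.03-fold), Atp5b in ΔPod (1.11-fold) and Atp5a1 in K2A (1.25-fold). The least even were Ndufb4c in WT (3.68-fold) and Cox8b in ΔPod (50.1-fold) and K2A (14.4-fold).

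**Figure D1:**
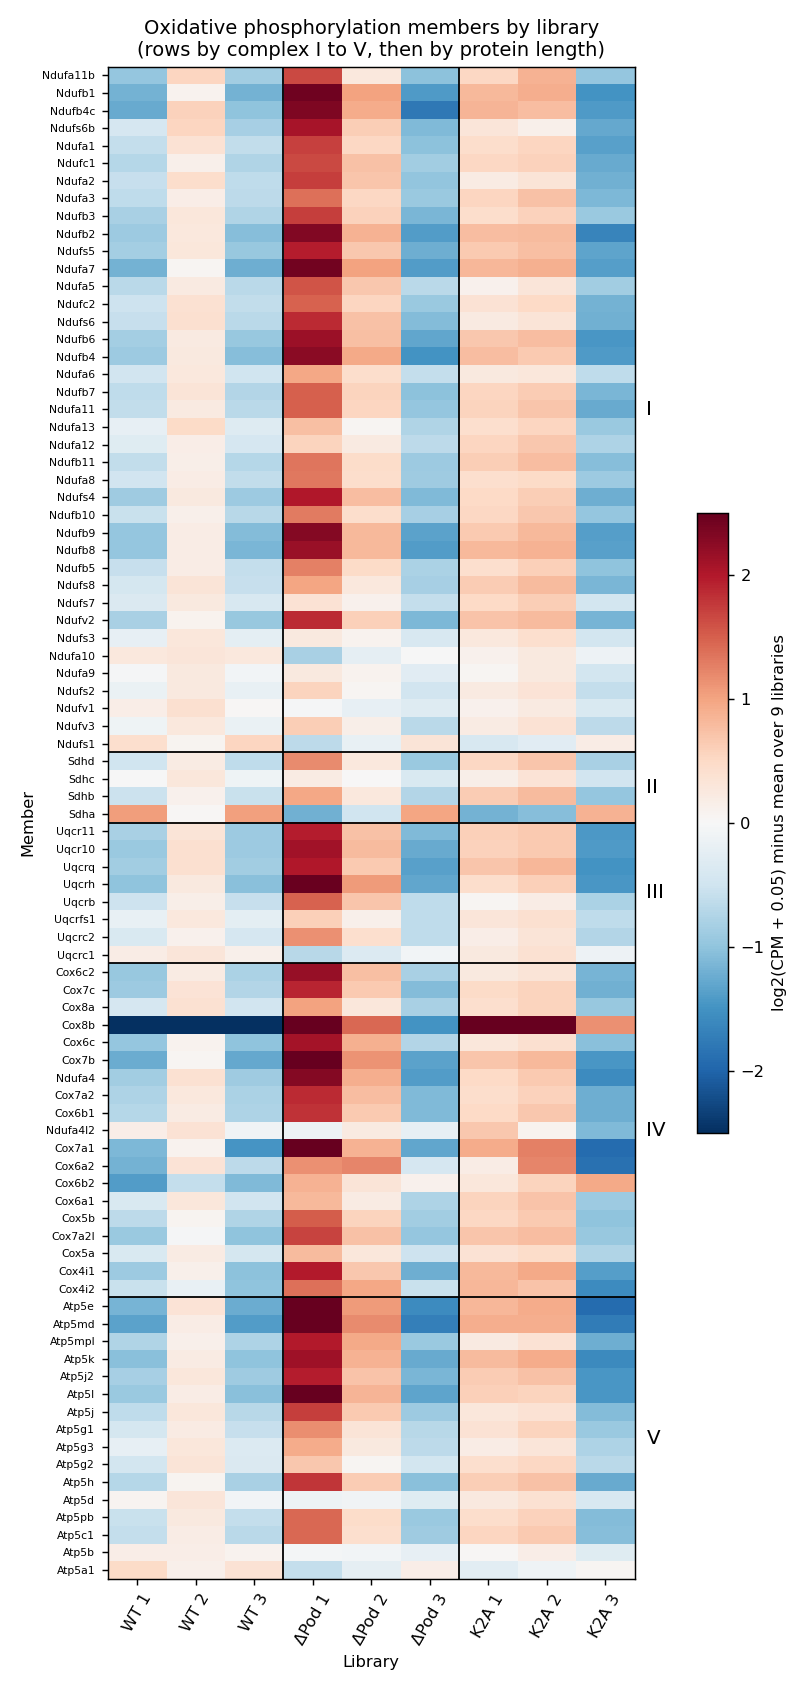
Each row is a tested member, ordered by complex I to V and then by protein length (genes without a coding length first), each column a library, and colour gives log2(CPM + 0.05) minus the gene's mean over 9 libraries, with the colour scale ending at 2.5 either way. WT 1, WT 3, ΔPod 3 and K2A 3 are blue and the other libraries red for most rows, while Sdha, Ndufs1 and Atp5a1 run the other way.

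Ndufs1, the largest complex I subunit and a carrier of iron-sulfur clusters, had 326, 256 and 353 CPM in WT 1, 2 and 3, 154, 215 and 305 CPM in ΔPod, and 184, 199 and 277 CPM in K2A. Ndufa1, a membrane subunit and the shortest protein of the complex among members with a coding length, with 70 residues, had 146, 284 and 143 CPM in WT, 723, 314 and 108 CPM in ΔPod, and 298, 319.9 and 86.3 CPM in K2A. The 2 genes were high in opposite libraries: Ndufs1 in WT 1, WT 3, ΔPod 3 and K2A 3, Ndufa1 in the other 5. Their CPM ratio, Ndufa1 over Ndufs1, ranged 15.1-fold, from 0.312 in K2A 3 to 4.69 in ΔPod 1. Ndufv1, which binds NADH, was comparatively even at 501, 596 and 458 CPM in WT, 441, 393 and 361 CPM in ΔPod, and 482, 524 and 347 CPM in K2A.

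Complex II showed the same split inside a complex of 4 proteins. Sdha, of 664 residues, had 1023, 506 and 1011 CPM in WT, 217, 353 and 983 CPM in ΔPod, and 221, 238 and 912 CPM in K2A. Sdhb, of 282 residues, had 464, 727 and 459 CPM in WT, 1309.5, 807 and 406 CPM in ΔPod, and 1039, 1159 and 344 CPM in K2A. Sdha was highest in WT 1, WT 3, ΔPod 3 and K2A 3, the same 4 libraries in which Sdhb was lowest, and both mutant groups overlapped WT for both genes. Sdhb over Sdha was 0.454, 1.44 and 0.454 in WT, 6.03, 2.29 and 0.413 in ΔPod, and 4.70, 4.87 and 0.377 in K2A. The ratio of Sdhd, of 159 residues, to Sdha ranged 19.4-fold over the libraries. Sdhc was flatter, with 525, 647 and 493 CPM in WT, 609.6, 534 and 406 CPM in ΔPod, and 591, 676 and 383 CPM in K2A.

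In complex III the shortest protein, Uqcr11, of 56 residues, had 191, 417 and 179 CPM in WT, 1301, 559.7 and 156 CPM in ΔPod, and 504, 531 and 124 CPM in K2A. Uqcrc1, a core protein of 480 residues, had 718, 783 and 692 CPM in WT, 392, 497 and 600.3 CPM in ΔPod, and 749.7, 827 and 581 CPM in K2A. All ΔPod libraries lay below WT for Uqcrc1, whereas Uqcr11 overlapped. Their ratio ranged 15.6-fold. The wider pair of the complex was the hinge protein Uqcrh, of 89 residues, over Uqcrc1, whose ratio ran from 0.382 in K2A 3 to 8.69 in ΔPod 1. Uqcrfs1, the Rieske iron-sulfur protein, had 509, 691 and 487 CPM in WT, 874, 629.7 and 372 CPM in ΔPod, and 706, 755 and 371 CPM in K2A.

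The nuclear subunits of complex IV are short, with at most 172 residues among those with a coding length. Cox4i1, of 169 residues, had 1202, 2455 and 1111 CPM in WT, 8951, 3579 and 968 CPM in ΔPod, and 3929.8, 4332 and 869 CPM in K2A. Cox7c, of 63 residues, had 55.4, 132 and 62.9 CPM in WT, 391, 164 and 49.2 CPM in ΔPod, and 145, 154 and 45.2 CPM in K2A. Both were high in WT 2, ΔPod 1, ΔPod 2, K2A 1 and K2A 2 and low in the other 4 libraries. Their ratio ranged 1.59-fold, from 0.0356 to 0.0566, the narrowest range among the 5 pairs of a short and a long subunit compared, 1 for each complex.

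In complex V, Atp5e, the epsilon subunit of 52 residues, had 277, 786 and 260.4 CPM in WT, 4056, 1298 and 208 CPM in ΔPod, and 1106, 1185 and 163 CPM in K2A. Atp5a1, the alpha subunit of 553 residues, had 3035, 2397 and 2824 CPM in WT, 1446, 1864 and 2447 CPM in ΔPod, and 1818, 2038 and 2277 CPM in K2A. Atp5e varied widely between libraries and Atp5a1 little, and their ratio ranged 39.1-fold, from 0.0718 in K2A 3 to 2.80 in ΔPod 1. Atp5b, the partner of Atp5a1 in the catalytic head, stayed between 3063 and 4245 CPM in all 9 libraries. Atp5o, which encodes the stalk protein OSCP and stands in the ΔPod table only, is no member, and had 239.8, 427 and 222 CPM in WT and 1028, 522 and 197 CPM in ΔPod.

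**Figure D2:**
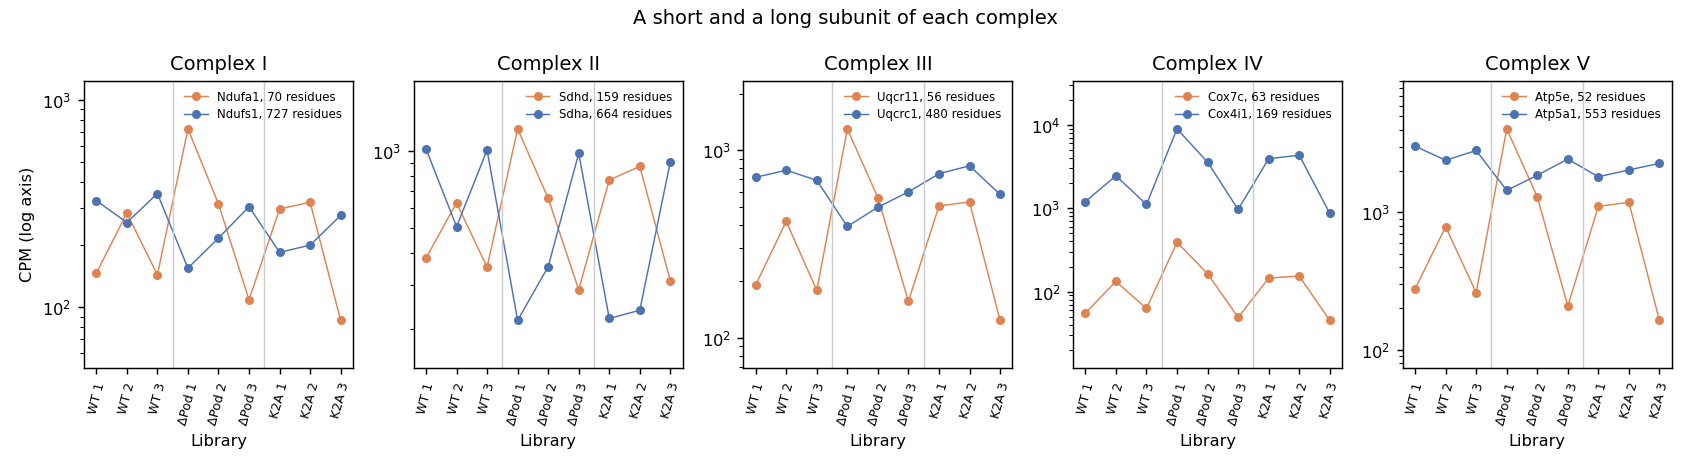
CPM on a log axis of a short (orange) and a long (blue) subunit of each complex in the 9 libraries, one panel per complex, with grey lines between groups. The pairs of complexes I, II, III and V cross or converge between libraries, while Cox7c and Cox4i1 run parallel.

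The pattern was followed in 5 differences between libraries of the same group: WT 2 minus the mean of WT 1 and WT 3, ΔPod 1 and ΔPod 2 each minus ΔPod 3, and K2A 1 and K2A 2 each minus K2A 3. Of the 86 tested members, 79 (91.9%) were higher in all 5, beside 37.3% of all tested genes. The 3 members that were lower in all 5 (3.49%, beside 36.2% of all genes) were Sdha, Ndufs1 and Atp5a1, which encode the largest member proteins, of 664, 727 and 553 residues. Cox6b2, Cox8b, Ndufa10 and Uqcrc1 were mixed. The members' median log2 differences were 0.87, 2.43, 1.52, 1.56 and 1.68. By complex, the median of ΔPod 1 minus ΔPod 3 was 2.47 in complex I, 1.14 in II, 2.58 in III, 2.81 in IV and 2.5 in V. WT 1 and WT 3 were close, with a median difference of 0.06, as were K2A 1 and K2A 2, with -0.13.

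The differences graded with coding length. Members with under 400 coding bases, 40 genes, had medians of 1.07, 2.96, 1.83, 1.78 and 1.89 in the 5 differences, in the order above. The 27 members of 400 to under 800 bases had 0.77, 2.10, 1.28, 1.49 and 1.64, and the 14 members of 800 bases or more had 0.30, 0.41, 0.26, 0.49 and 0.65. All tested genes graded the same way: 805 genes under 400 bases had medians of 0.82, 2.07, 1.34, 1.44 and 1.47, 2526 genes of 400 to under 800 bases had 0.50, 1.15, 0.74, 0.94 and 0.96, and 11111 genes of 800 bases or more had -0.27, -0.82, -0.45, -0.42 and -0.43. Across 81 members with a coding length, Spearman's rho between coding length and the difference was -0.66, -0.64, -0.66, -0.57 and -0.56. Over all genes it was -0.65, -0.58, -0.61, -0.63 and -0.64. These are descriptions across genes, which share the libraries and are not independent replicates. In every length class and difference the members' median lay above that of all genes of the class; whether this is particular to the members was not tested. Ribosomal protein genes, another set of short and abundant transcripts, took 1.18%, 2.47% and 1.11% of counts in WT, 7.95%, 4.31% and 1.14% in ΔPod, and 3.88%, 3.95% and 1.01% in K2A, in the same order of libraries within each group as the members.

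**Figure D3:**
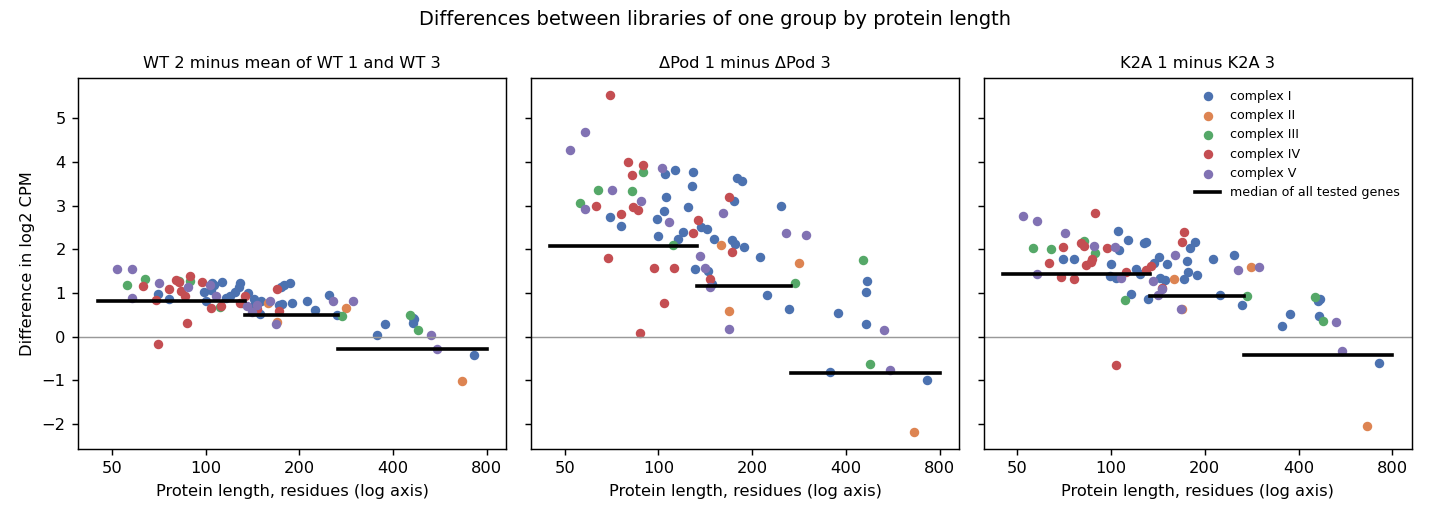
Log2 CPM difference between libraries of the same group for each member (points, coloured by complex) against protein length in residues on a log axis; black bars are the medians of all tested genes in the 3 length classes. Points fall from left to right in all 3 panels, from mostly above the bars of the short classes to below 0 for Sdha and Ndufs1.

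Against WT, no member passed the edgeR test at a false discovery rate of 0.05. In ΔPod 0 of 86 members were called, beside 0.985% of all tested genes, and in K2A 0 of 86, beside 0.847%. At an unadjusted p under 0.05 there were 4 members in ΔPod (Cox8b, Cox6b2, Cox6c and Cox7b; 13.8% of all genes) and 2 in K2A (Cox8b and Cox6b2; 10.6% of all genes). DESeq2 called 2 members in each comparison, Cox8b and Cox6b2, beside 5.52% of all genes in ΔPod and 5.03% in K2A. Between the genotypes, K2A minus ΔPod, edgeR called 0 members and 0% of all genes, with 0 members at an unadjusted p under 0.05 (2.01% of all genes) and 0 called by DESeq2 (0.105% of all genes). The median of K2A minus ΔPod was -0.49, with 17 of 86 members positive (48.8% of all genes).

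The fold changes nevertheless sat away from 0. In ΔPod 75 of 86 members had a positive log2 fold change (53.4% of all genes) and the median was 1.06, beside 0.08 for all genes. In K2A 75 were positive (55.6% of all genes) and the median was 0.48, beside 0.09. Both comparisons share the WT libraries. By complex the medians in ΔPod were 0.96 in complex I, 0.25 in II, 1.16 in III, 1.39 in IV and 1.03 in V, and in K2A 0.47, 0.26, 0.37, 0.55 and 0.38. The members with the smallest p outside complex IV had wide errors: in ΔPod, Ndufa7 of complex I had a log2 fold change of 2.02 ± 0.93 (SE; edgeR adjusted p = 0.377), Uqcrh 1.90 ± 0.90 (edgeR adjusted p = 0.382) and Atp5md, a small subunit of ATP synthase, 2.44 ± 1.11 (edgeR adjusted p = 0.375). In K2A they were Ndufs1 at -0.50 ± 0.33 (edgeR adjusted p = 0.686), Sdha at -0.89 ± 0.72 (edgeR adjusted p = 0.748), Uqcrq at 0.64 ± 0.85 (edgeR adjusted p = 0.821) and Atp5a1 at -0.43 ± 0.29 (edgeR adjusted p = 0.699).

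Few members separated from WT without overlap. In ΔPod, Cox8b and Cox6b2 lay above all WT libraries (2 of 86; 8.73% of all genes), and Ndufa10, Ndufv1, Uqcrc1, Atp5b and Atp5d lay below (5 of 86; 9.47%). In K2A, Cox8b and Cox6b2 lay above (2 of 86; 11% of all genes), and Ndufa10 and Atp5a1 below (2 of 86; 9.18%). These counts of members were no higher than the shares over all genes, so no pattern by complex is read from them. Ndufa10, an accessory subunit of 355 residues, had 332, 339 and 329.9 CPM in WT, 158, 237 and 275 CPM in ΔPod, and 298, 328 and 252 CPM in K2A. Its ΔPod values were spread more widely than those of WT, and its log2 fold change of -0.58 ± 0.28 did not pass (edgeR adjusted p = 0.383). In whole kidney RNA, fewer cells of a type and less RNA per cell cannot be told apart.

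The direction of the medians depended on which libraries were set against each other. Among the libraries in which longer transcripts were higher, ΔPod 3 minus the mean of WT 1 and WT 3 had a member median of -0.27, with 8 of 86 members higher, and K2A 3 minus the same mean had -0.42, with 3 of 86 higher. Among those in which shorter transcripts were higher, the mean of ΔPod 1 and ΔPod 2 minus WT 2 had a median of 0.82, with 72 of 86 higher, and the mean of K2A 1 and K2A 2 minus WT 2 had 0.27, with 70 of 86 higher. A fit on the first 4 libraries called 22 members in ΔPod (2 higher and 20 lower; 22.8% of all genes called) and 57 in K2A (2 higher and 55 lower; 31% of all genes called). There the mutant groups are single libraries, assumed to vary like WT 1 and WT 3, and these 2 close libraries alone give the spread, with 1 residual degree of freedom, so the calls compare single libraries more than conditions. The fit on the other 5 libraries called 0 members in both comparisons (0.244% and 0.143% of all genes), and WT is a single library there. Without ΔPod 1 the median in ΔPod was 0.28, and the median of K2A minus ΔPod was 0.20.

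With the length slope of each library as a covariate, the median log2 fold change was 0.01 in ΔPod and -0.23 in K2A, and 43 and 6 of 86 members were positive (51.3% and 50% of all genes). Under this fit 6 members were called in ΔPod (14.2% of all genes). Cox8b (5.63), Cox6b2 (1.38) and Cox6c (0.61) were higher on the log2 scale (6.12% of all genes), and Ndufv3 (-0.38), Ndufa13 (-0.50) and Ndufv1 (-0.54) were lower (8.12% of all genes). In K2A 9 were called (16.2% of all genes). Cox8b (7.81) and Cox6b2 (1.59) were higher (7.65% of all genes). Ndufa2 (-0.56), Ndufs6 (-0.56), Ndufa1 (-0.50), Ndufc2 (-0.44) and Ndufa13 (-0.40) of complex I, Sdha (-0.54) of complex II and Atp5g3 (-0.38) of complex V were lower (8.59% of all genes). The edgeR adjusted p of Cox6c was 0.0464 and that of Ndufs6 0.0488. With the sign of the slope as a class term in place of its value, the calls were 2 members in each comparison, Cox8b and Cox6b2, both higher (3.96% of all genes in ΔPod and 4.09% in K2A). These fits use a covariate measured on the same counts.

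**Figure D4:**
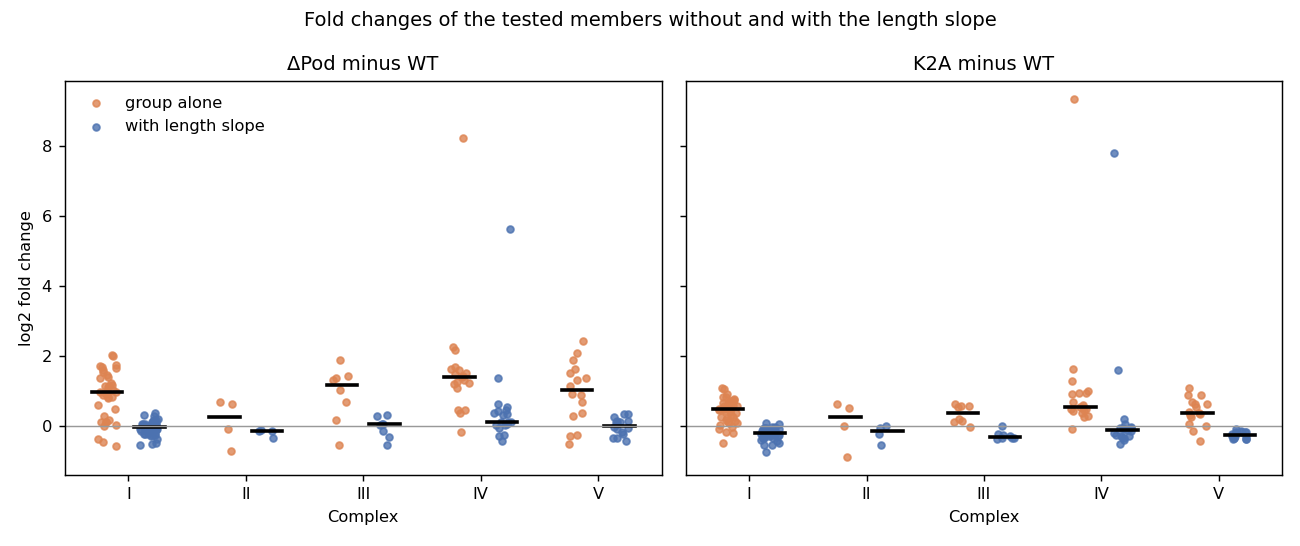
Log2 fold change against WT of each tested member by complex, from the fit with the group alone (orange) and with each library's length slope as covariate (blue); black bars are medians. The orange medians of complexes I, III, IV and V in ΔPod lie near 1, the blue ones near 0, and Cox8b stands apart in both.

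Cox8b, the heart, skeletal muscle and brown fat isoform of cytochrome c oxidase subunit 8, had 2, 1 and 1 counts in WT, which is 0.0554, 0.0286 and 0.0247 CPM. It had 30.3, 4.88 and 0.605 CPM in ΔPod 1, 2 and 3 and 16.7, 56.97 and 3.97 CPM in K2A 1, 2 and 3. All 6 mutant libraries lay above WT, over a 50.1-fold range in ΔPod. With so few counts in WT, Cox8b passed the filter on low counts only through the mutant libraries, where it is high. Its separation from WT and its calls among the filtered genes are therefore a description and no independent support. The log2 fold change was 8.24 ± 1.83 in ΔPod (edgeR adjusted p = 0.0938) and 9.36 ± 1.89 in K2A (edgeR adjusted p = 0.0726). From summed counts, 1075 in ΔPod against 4 in WT, the ratio was 249.7-fold with an exact 95% interval of 97.2 to 918, and for K2A, with 2624 counts, it was 681-fold with an interval of 266 to 2502. These intervals cover counting error only. With no filter on low counts, which raised the number of genes tested to 33070, Cox8b was called in both comparisons (edgeR adjusted p = 0.0310 in ΔPod and 0.0179 in K2A). ΔPod 3 alone, with 30 counts, was 16.8-fold above WT (5.94 to 65.8), and K2A 3, with 164 counts, 111-fold (42.4 to 411). As a share of the per-length level, CPM per kb, of Cox8a plus Cox8b, it made up at most 0.0146% in WT, 0.208% to 2.88% in ΔPod and 1.49% to 7.06% in K2A.

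Markers of fat moved with Cox8b. The summed level of 6 brown adipocyte markers was 0.0573 to 0.346 CPM in WT, 36.5, 0.750 and 0.584 CPM in ΔPod 1, 2 and 3, and 30.6, 155 and 0.339 CPM in K2A 1, 2 and 3. Ucp1, the uncoupling protein that defines brown fat, had 0 counts in WT and in K2A 3, 28.2, 0.141 and 0.141 CPM in ΔPod, and 20.4 and 109 CPM in K2A 1 and 2. For 6 white adipocyte markers the sums were 31.7 to 79.6 CPM in WT, 22.9 to 421 CPM in ΔPod and 43.1 to 726 CPM in K2A, and Adipoq, which encodes adiponectin, was at 0 in WT 1, WT 2, ΔPod 3 and K2A 3. Cox8b and these markers were highest in ΔPod 1, K2A 1 and K2A 2. In K2A 3, Ucp1 and Adipoq had 0 counts, while Plin1, another white adipocyte marker, had 8, beside 0 to 2 in WT. Cox8b had 164 counts there, and the summed brown and white fat markers of K2A 3 lay within the WT range. In WT, however, Adipoq had at most 3 counts and Plin1 at most 2. Most of the WT white adipocyte sum thus came from other markers of the list. The 5 urothelium markers were highest in the same 3 libraries, with 40.5, 8.56 and 0.484 CPM in ΔPod and 41.5, 53.5 and 5.64 CPM in K2A, beside 4.55 to 8.21 CPM in WT. Skeletal muscle markers summed to at most 0.385 CPM in any library. The part of fat or urothelium in the Cox8b values of any mutant library was not tested.

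The other tissue-restricted isoforms were measured beside their common partners. Cox6b2, the testis isoform of subunit 6b, had 2.91, 5.10 and 3.58 CPM in WT, 14.2, 9.75 and 8.32 CPM in ΔPod, and 9.48, 11.4 and 14.9 CPM in K2A. All mutant libraries lay above all WT libraries, including ΔPod 3 and K2A 3, which were low for most members. The log2 fold change was 1.48 ± 0.35 in ΔPod (edgeR adjusted p = 0.112) and 1.63 ± 0.35 in K2A (edgeR adjusted p = 0.0884). Cox7a1, the heart and muscle isoform of subunit 7a, which brown fat also makes, had 16.2, 37.5 and 12.7 CPM in WT, 221, 64.0 and 14.3 CPM in ΔPod, and 67.0, 84.7 and 9.29 CPM in K2A. It and its common partner Cox7a2 were both highest in ΔPod 1 and lowest in K2A 3. Cox7a1 made up 15.1% of the pair's per-length level in ΔPod 1, 12.7% in K2A 1 and 14.4% in K2A 2. In the other libraries its share was 5.96% to 9.96%. The fat markers were also highest in ΔPod 1, K2A 1 and K2A 2, and the part of fat in these shares was not tested. Cox6a2, the heart and muscle isoform of subunit 6a, stayed between 0.653 and 5.93 CPM and at most 0.493% of the per-length level of the 6a pair. Cox4i2, an isoform known from lung and from oxygen sensing, stayed between 0.387 and 3.33 CPM and at most 0.0882% of that of the Cox4 pair. Ndufa4l2, a paralog of Ndufa4 induced by low oxygen, had 2.37 to 8.24 CPM with no order by group. Of the c-ring genes, whose mature proteins are identical, Atp5g1 made up 5.89% to 8.11% of the per-length level of Atp5g1 plus Atp5g3, and Atp5g2 1.85% to 2.59% of that of Atp5g2 plus Atp5g3. The share of Atp5g1 depends strongly on the transcript lengths used, 2675 bases for Atp5g1 and 718 for Atp5g3. Without division by length, their means over 9 libraries were 307 and 1073 CPM.

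**Figure D5:**
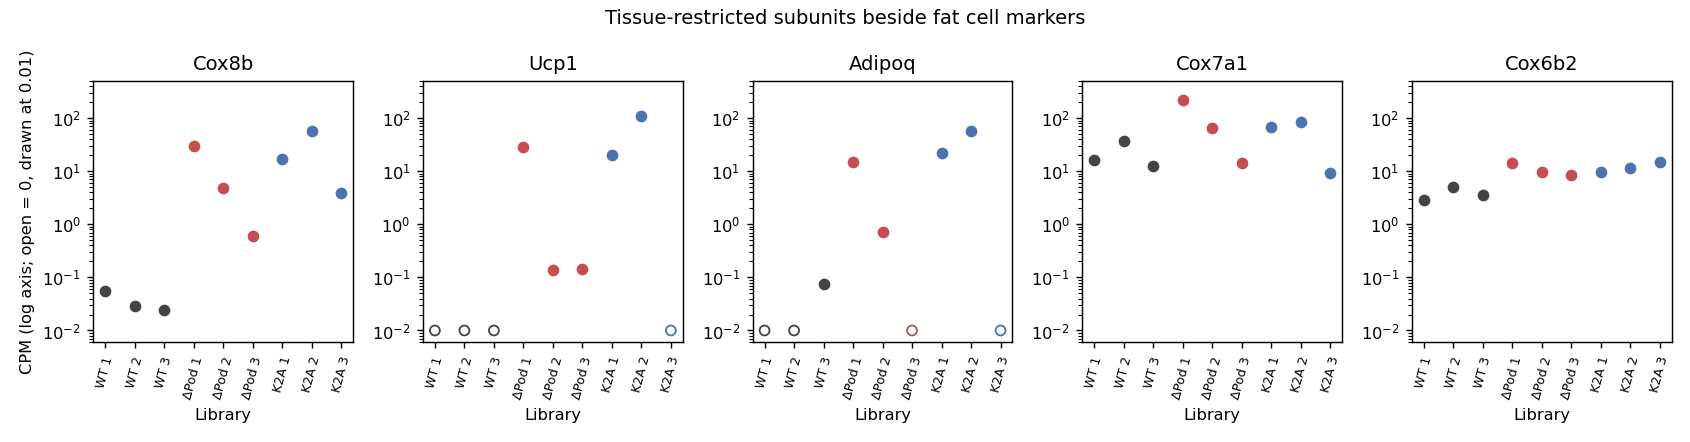
CPM on a log axis (open circles are 0, drawn at 0.01) of Cox8b, Cox7a1 and Cox6b2 beside the fat markers Ucp1 and Adipoq in WT (black), ΔPod (red) and K2A (blue) libraries. Cox8b, Ucp1 and Adipoq are highest in ΔPod 1, K2A 1 and K2A 2, while Cox6b2 lies above WT in all 6 mutant libraries.

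Of the members on the X chromosome, Ndufa1 is given above, Ndufb11 had 200.3 to 366 CPM in WT, 175 to 829 CPM in ΔPod and 158 to 559.96 CPM in K2A, and Cox7b, a small subunit of complex IV, had 273, 665 and 268 CPM in WT, 4082, 1410.1 and 254 CPM in ΔPod, and 1045, 1138 and 235 CPM in K2A. All 3 overlapped WT in both comparisons.

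Genes that serve the same complexes were taken from lists. No gene of any of the 7 lists was called against WT by edgeR, and in K2A minus ΔPod 0 were called too. At an unadjusted p under 0.05, beside 13.8% of all genes in ΔPod and 10.6% in K2A, there were few genes of these lists. They were 1 of 20 regulators in ΔPod, Gabpb1, which encodes a subunit of the factor GABP, and 1 of 11 mitochondrially encoded genes, mt-Nd6, in each mutant group. DESeq2, which gave some mitochondrially encoded genes no adjusted p, called mt-Nd6 in K2A (5.03% of all genes) and no other gene of these lists. The assembly factors of complexes I and II, 22 tested genes, had median log2 fold changes of 0.49 in ΔPod and 0.25 in K2A, and those of complexes III to V, 32 genes, 0.56 and 0.39. The large subunit of the mitochondrial ribosome, 49 genes, had 0.75 and 0.41. Regulators of mitochondrial gene expression such as Ppargc1a, Nrf1 and Tfam, 20 genes, had -0.21 and -0.10, and the citric acid cycle enzymes, 18 genes, -0.32 and -0.24. Cytochrome c and cytochrome c1, Cycs and Cyc1, had a median of 0.35 in ΔPod and 0.03 in K2A. The summed CPM of the cycle enzymes was 6780.4 to 7491 in WT, 5159.9 to 7103 in ΔPod and 5464 to 6793 in K2A, an overlap in both comparisons. With the length slope as covariate, edgeR called 8.12% of all genes lower and 6.12% higher in ΔPod, and 8.59% lower and 7.65% higher in K2A, and the counts of each list are to be read against these shares. Among the 22 assembly factors of complexes I and II, 2 genes were lower in ΔPod (9.09%), Acad9 and Nubpl, and 4 in K2A (18.2%), these 2 with Timmdc1 and Tmem126a. Among the 32 of complexes III to V, 1 was lower in ΔPod (3.12%) and 2 in K2A (6.25%). They were Cox15, needed for the haem of complex IV, lower in both at -0.63 and -0.59 on the log2 scale, and Cox20, a chaperone for a mitochondrially encoded subunit of complex IV, at -0.62 in K2A. Of the 49 genes of the mitochondrial ribosome list, 5 were lower in ΔPod (10.2%), and 5 were lower (10.2%) and 1 higher (2.04%) in K2A, shares near those of all genes. Of the 18 cycle enzymes, 1 was lower in each group (5.56%), Pdhx of the pyruvate dehydrogenase complex in ΔPod (-0.38) and Sucla2, a subunit of succinyl-CoA synthetase, in K2A (-0.53). Cycs was lower in K2A, at -0.70. Of the 20 regulators, 2 were higher in K2A (10%), Ppara, which drives fatty acid oxidation, at 1.08 and Esrrb, an estrogen-related receptor, at 0.46. Of the 11 mitochondrially encoded genes tested, 1 was higher in ΔPod (9.09%) and 7 in K2A (63.6%). In K2A minus ΔPod no gene of these lists was called in this fit.

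The 13 mitochondrially encoded subunits did not follow the nuclear members. Their summed level was 36792, 10734 and 31274 CPM in WT 1, 2 and 3, 7657, 9267 and 97968 CPM in ΔPod 1, 2 and 3, and 47076, 46687 and 75894 CPM in K2A 1, 2 and 3. They were highest in ΔPod 3 and K2A 3, where the nuclear members were lowest, and K2A 1 and K2A 2 were high in both sets. All K2A libraries lay above all WT libraries in this sum, and ΔPod overlapped. The median log2 fold change of the 11 tested genes was 0.64 in ΔPod and 0.89 in K2A, with 0 called. The smallest edgeR adjusted p in K2A was 0.137, of mt-Nd6, a complex I subunit, which had 28.2, 29.0 and 31.5 CPM in WT, 52.4, 60.3 and 194 CPM in ΔPod, and 236, 191 and 73.1 CPM in K2A. Most mRNAs of mitochondrial DNA carry short poly(A) tails, and how oligo-dT selection captured them, or mt-Nd6, in each library was not tested.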

How the data were processed

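The authors deposited whole-number counts per gene symbol, with WT beside ΔPod in 1 table and WT beside K2A in another. STAR 2.7.3a, featureCounts 2.0.1, Trim Galore 0.6.3 and build mm10 are listed, per the submitters' processing notes, without roles. Strand setting and handling of multiply mapped reads are not given in the sources used here. For 3 shared symbols WT counts differed between tables, and these were left out. Counts were analysed with edgeR 4.0.16 in R 4.3.3: filterByExpr, TMM factors, 1 quasi-likelihood fit of all 9 libraries with a group term, and Benjamini-Hochberg adjustment over 18067 genes. The edgeR step was also run on simulated counts. These held no length trend between libraries and a limited spread, so the run checks the code and not the calls in these data. Transcript and coding lengths came from GENCODE vM21. Alternatives were other scalings and filters, DESeq2 1.42.0, limma-voom, a replicate block, length terms, length classes and leaving out each library. No 2 libraries of a group agreed within sampling noise: chi-square per degree of freedom was 9.86 or more. Same-numbered ΔPod and K2A libraries deviated together from their group means (r = 0.76, 0.40 and 0.85 over genes). However, ΔPod 1 correlated as much with K2A 2 (0.77) and ΔPod 2 with K2A 1 (0.44), and no label names a shared litter or batch. Members, lists, terms and the rule for naming genes (per complex the highest, longest, shortest and smallest p, with isoform pairs) were chosen with earlier results of these data known, and some genes, such as Uqcrfs1 and Ndufb11, were named after their values were seen. Samples were grouped by the labels.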

Additional observations from a re-analysis of the deposited data

How the results depend on the processing

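The count of called members was 0 in each comparison by edgeR with the group alone, and also 0 under RLE, upper quartile and library size scaling, a filter of 1 CPM in 3 libraries, and without mitochondrially encoded genes or with factors computed without members and ribosomal protein genes. In ΔPod minus WT, members called were 1 with no filter, 1 with a replicate block, 1 with the block and the length slope, 6 with the slope, 2 with the length class, 22 in the libraries with longer transcripts higher, 2 by DESeq2, 80 by limma-voom with sample weights, and 0 to 1 when a library was left out (1 without ΔPod 3). In K2A minus WT they were 1 with no filter, 1 with only the 6 libraries compared, 1 with the block, 1 with block and slope, 9 with the slope, 2 with the class, 57 in the longer-transcript libraries, 2 by DESeq2, 80 by limma-voom and 0 to 1 when a library was left out (1 without ΔPod 1 or ΔPod 3). In K2A minus ΔPod they were 3 in the longer-transcript libraries and 17 by limma-voom. Over all genes, the 178 calls in ΔPod became 54 with only 6 libraries, 270 with the block, 640 with block and slope, 2573 with the slope, 715 with the class, 4162 and 46 in the longer- and shorter-transcript libraries, 998 by DESeq2 and 14246 by limma-voom, and ranged from 23 (without WT 3) to 411 (without ΔPod 3), with 26 without WT 1, 34 without WT 2, 91 without ΔPod 1, 36 without ΔPod 2, 78 without K2A 1 and 80 without K2A 2. The 153 calls in K2A became 232, 1085, 2934, 739, 5647, 27, 909 and 14262 under the same settings from the block on, and ranged from 3 (without WT 1) to 291 (without ΔPod 3), with 23 without WT 2, 5 without WT 3, 95 without ΔPod 2, 13 without K2A 1 and 12 without K2A 2. Between the genotypes 0 calls became 1 with block and slope, 36 with the slope, 1677 in the longer-transcript libraries, 19 by DESeq2, 5060 by limma-voom, and 0 to 2 when a library was left out (2 without K2A 3). The limma-voom sample weights ran from 0.0826 for K2A 3 to 11.6 for ΔPod 2. ΔPod 1 and ΔPod 3 had weights of 0.204 and 0.0996, so ΔPod 2 largely stood for its group. The 80 member calls by limma-voom stand beside 14246 of 18067 genes in ΔPod and 14262 in K2A. With no filter, 184 of 33070 genes were called in ΔPod and 186 in K2A. With only the 6 libraries compared, 197 of 17219 genes were called in K2A.

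The members' median in ΔPod minus WT was -0.061 with block and slope, 0.0053 with the slope and -0.26 in the longer-transcript libraries, and 0.28 (without ΔPod 1) to 1.45 (without ΔPod 3) when a library was left out; in K2A minus WT, when a library was left out, it ran from 0.19 (without K2A 2) to 0.85 (without WT 2), with 0.28 without K2A 1, 0.30 without WT 1, 0.29 without WT 3 and 0.81 without K2A 3. With the length class it was 0.31 in ΔPod and -0.19 in K2A, with block and slope -0.25 in K2A, with the slope -0.23, in the longer-transcript libraries -0.41, and by limma-voom 1.21 in ΔPod and 1.18 in K2A. In K2A minus ΔPod, when a library was left out, it ran from -0.89 (without ΔPod 3) to 0.20 (without ΔPod 1). Upper quartile scaling moved the median of all genes to 0.26 in ΔPod and 0.24 in K2A, with member medians of 1.31 and 0.66. Members called in the opposite direction to their fold change in the fit with the group alone were counted over all 86. The share of all tested genes that did so is not given here, so whether this is particular to the members cannot be told. In the longer-transcript libraries, where 1 residual degree of freedom makes the calls a comparison of single libraries, there were 48 in K2A and 18 in ΔPod. With the slope there were 6 in K2A and 2 in ΔPod, and by limma-voom 2 in K2A. Of the 48, the members named here are Atp5d (-0.39), Atp5e (-0.70), Atp5g1 (-0.41), Atp5g3 (-0.49), Atp5k (-0.54), Atp5l (-0.47), Atp5md (-0.37) and Atp5mpl (-0.43) of complex V. In complex IV they are Cox4i1 (-0.40), Cox6a1 (-0.47), Cox6b1 (-0.46), Cox7a1 (-0.62), Cox7a2 (-0.41), Cox8a (-0.49) and Ndufa4 (-0.68). In complex I they are Ndufa1 (-0.73), Ndufa13 (-0.65), Ndufa2 (-0.58), Ndufa3 (-0.47), Ndufb11 (-0.37), Ndufb9 (-0.35), Ndufc2 (-0.61), Ndufs6 (-0.56) and Ndufv3 (-0.51). In complexes II and III they are Sdhb (-0.41), Uqcr10 (-0.49), Uqcr11 (-0.57), Uqcrc2 (-0.33), Uqcrfs1 (-0.41), Uqcrh (-0.42) and Uqcrq (-0.61). Of the 18 in ΔPod they are Atp5e (-0.36), Atp5g3 (-0.39), Cox6a1 (-0.32), Cox6b1 (-0.36), Cox8a (-0.34), Ndufa1 (-0.40), Ndufa13 (-0.48), Ndufa2 (-0.36), Ndufa4 (-0.49), Ndufs6 (-0.45), Ndufv3 (-0.53), Sdhd (-0.34), Uqcr10 (-0.33), Uqcrfs1 (-0.41) and Uqcrq (-0.47). With the slope they were Atp5g3 (-0.38), Ndufa1 (-0.50), Ndufa13 (-0.40), Ndufa2 (-0.56), Ndufc2 (-0.44) and Ndufs6 (-0.56) in K2A and Ndufa13 (-0.50) and Ndufv3 (-0.38) in ΔPod. By limma-voom they were Ndufs6b (0.74) and Sdhc (0.28). The cause was not tested.

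Against WT, libraries shared only a number: the correlation of their deviations from the group means was -0.62 for WT 1 and ΔPod 1 and -0.54 for WT 1 and K2A 1, beside 0.44 to 0.76 for numbers 2 and 3. The member called with the replicate block was Cox8b, with an edgeR adjusted p of 0.0336 in ΔPod and 0.0199 in K2A. Between ΔPod and K2A, same-numbered libraries deviated together, but for numbers 1 and 2 no more than differently numbered ones. There the block called 0 members and 0 genes, as without it. Groups of 3 libraries, a 5.40-fold median range within ΔPod and the lack of independent batch records limit these comparisons, and the calls with length terms rest on a slope estimated from the same counts.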
